A study of Mus musculus with 8 samples.

Results

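The genes described here are 10 that carry amino acid, stress or growth factor signals to the protein kinase complex TORC1 or act just below it: Sesn1, Sesn2, Ddit4, Eif4ebp1, Tas1r1, Rragc, Rragd, Tsc1, Tsc2 and Rheb. They were taken by symbol, as the probe sets that the array annotation gives to exactly 1 of these genes, which yielded 16 probe sets for 10 of the 12394 genes named on the array. The genes were proposed by their role with the values of the same comparison, starved against control myotubes, already known. Their differences are therefore a description, and no p-value is given for them. C2C12, an established line of mouse myoblasts that form myotubes once serum is reduced, was differentiated in medium with 2% horse serum and fed alike until day 4. Control cultures were then given fresh medium every 48 h, while the starved cultures had none for 4 days, and RNA of both was taken on day 8 (n = 4 arrays per group). The labels also list 10% fetal bovine serum for every array. Array values below are listed in the order of the replicate letters, A, B, C, D for control and E, F, G, H for starved. What the starved cultures lacked was fresh medium as a whole, not amino acids alone, and all cells belong to 1 line.

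TORC1 sits on the lysosome and drives protein synthesis and growth when amino acids and growth factors are both present. Amino acids act through the Rag GTPases, which bring TORC1 to the lysosome, and sestrins hold this arm back when leucine is scarce. Growth factors and energy stress act through the TSC1-TSC2 complex, which switches off Rheb, the GTPase that turns TORC1 on. In skeletal muscle this kinase is known for its part in fibre growth. A well known substrate of it is 4E-BP1, a repressor of translation that TORC1 phosphorylates and so inactivates. All of this is control at the level of protein, whereas the arrays measured mRNA.

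The arrays differed in brightness, with trimmed mean intensities from 243 to 455, and were brought to a common distribution by quantile normalization. Levels below are log2 signals on that scale and cannot be compared between probe sets. Differences are starved minus control, ± the standard error unless SD is written, from limma's linear model over 13575 tested probe sets. A gene is called where its Benjamini-Hochberg adjusted p in that model is under 0.05, and every group holds 4 arrays. One array stood apart, control B, where the 3' probe set of Gapdh exceeded the 5' one by 1.40 (log2); on the remaining 7 arrays this gap was -0.23 to -0.04. The 12 myotube markers lay at or above the 93rd percentile of all probe sets, with Myh8 and Actn2 called higher and Des lower. The log2 of the 12 markers' summed linear signals was 16.01 to 16.09 in controls and at most 16.06 in starved arrays. The brightest markers weigh most in such a sum. Markers of endothelial cells, leukocytes, neurons and adipocytes had no called member among the 8 tested (lowest adjusted p = 0.16). Of the 3 tested markers of proliferating myoblasts, however, Cdk1 was called lower (-0.82, limma, adjusted p = 0.00159). Top2a (-0.98, adjusted p = 0.142) and Mki67 (-0.04, adjusted p = 0.93) were not called. Myf5, also on that list, was too dim to be tested, with means of 5.92 in controls and 6.37 in starved arrays. The log2 of the summed linear signals of that list was 9.33 to 9.52 in controls and 8.63 to 9.10 in starved arrays. Its part in the results was not tested. In cultures, fewer cells of a type and less RNA per cell cannot be told apart.

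Of the 10 genes, Sesn2 and Eif4ebp1 were higher in starved myotubes, Tas1r1 was lower, 6 were not called and Rragd was too dim to be tested. Sesn2 stood 1.57 ± 0.19 higher on the log2 scale (2.97-fold), Eif4ebp1 0.88 ± 0.09 higher (1.84-fold), and Tas1r1 was at -2.28 ± 0.22 (4.85-fold higher in controls). The other Sesn2 probe set stood only 0.61 ± 0.16 higher (1.53-fold). The Tas1r1 fold rests on dim starved values and moves with the offset, as given below. Over all 8352 genes tested 4.25% were called higher and 6.93% lower, 11.2% in all, and 18.5% had groups that did not overlap, as 3 of the 9 tested members did. The members were chosen with this comparison known, so nothing is read from these shares. In counts, 355 genes were higher and 579 lower, against 45 and 1027 in values left unscaled between arrays. The median difference of the 9 tested members was 0.01, the same as over all genes.

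**Figure D1:**
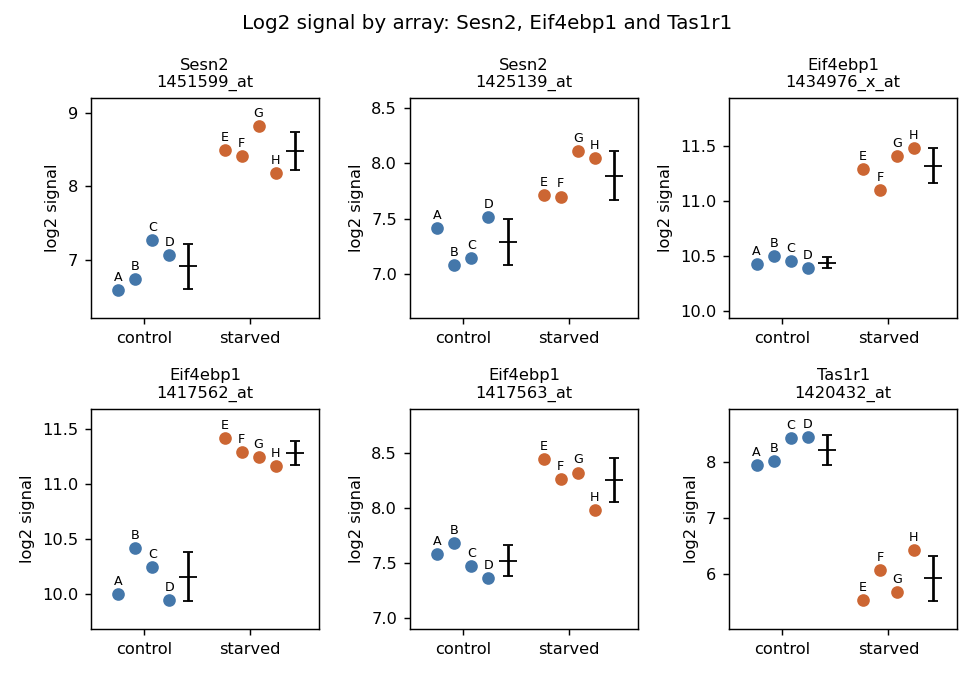
Log2 signal (vertical axis, quantile normalized) of the 6 probe sets of Sesn2, Eif4ebp1 and Tas1r1 in each control (blue) and starved (orange) array, with the group mean ± SD (n = 4) as a bar beside the points. In every panel the 4 starved arrays lie on 1 side of the 4 controls, above them for Sesn2 and Eif4ebp1 and below them for Tas1r1.

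Among the sestrins, which bind and restrain the GATOR2 complex when leucine is low, Sesn2 was called higher and Sesn1 was not called, and the difference between them was not tested. The Sesn2 probe set that stands for the gene (1451599_at) read 6.59, 6.73, 7.27 and 7.06 in controls and 8.50, 8.41, 8.82 and 8.19 in starved arrays. Each starved array was above each control, and the group means were 6.91 ± 0.31 (SD) and 8.48 ± 0.26. In deposited intensity the same probe set had a median of 135 in controls and 300 in starved arrays. The other Sesn2 probe set (1425139_at) was the brighter one in controls (median intensity 172) and the dimmer one over all arrays, so the starved values decided which of them stands for the gene. It read 7.41, 7.08, 7.14 and 7.51 in controls and 7.71, 7.70, 8.11 and 8.05 in starved arrays, a difference of 0.61 ± 0.16. The mean of both was 1.09. The call of 1425139_at was lost in 7 of 17 alternatives: with the values left unscaled (0.27), without a brightness filter, and when control A, B or C or starved G or H was left out.

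Sesn1, a known p53 target, was close to level on its brightest probe set. That probe set (1433711_s_at) read 9.31, 9.28, 9.06 and 9.27 in controls and 9.14, 9.06, 9.51 and 9.23 in starved arrays, with starved G the highest and control C and starved F the lowest. The difference was 0.00 ± 0.12, with a 95% interval from -0.25 to 0.26. The other 2 probe sets of Sesn1 stood at -0.43 ± 0.22 and -0.27 ± 0.21, and the mean of all 3 at -0.23. None of them was called. Their intervals ran from -0.92 to 0.06 and from -0.74 to 0.21. Sesn3, the remaining sestrin, was no member and is described with the pathway below.

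The 250 bases before the transcription start of both sestrin genes are shown because Sesn2 was called and Sesn1 was not. They come from RefSeq (GRCm38.p6), where 9 of the 10 genes have an entry, Eif4ebp1 being the exception. The Sesn1 windows lie on the plus strand at chr10:41810324-41810573 and chr10:41887189-41887438, and the Sesn2 window on the minus strand at chr4:132510457-132510706. Each is written 5′ to 3′ in the direction of its gene, and capitals mark matches of the CCAAT box on either strand, which in these windows appear as its reverse complement, ATTGG.
Sesn1 start 1: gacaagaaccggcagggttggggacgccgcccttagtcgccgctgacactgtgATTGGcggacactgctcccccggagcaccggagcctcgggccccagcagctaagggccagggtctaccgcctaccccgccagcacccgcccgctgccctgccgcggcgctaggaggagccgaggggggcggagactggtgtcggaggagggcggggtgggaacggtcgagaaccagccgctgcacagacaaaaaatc
Sesn1 start 2: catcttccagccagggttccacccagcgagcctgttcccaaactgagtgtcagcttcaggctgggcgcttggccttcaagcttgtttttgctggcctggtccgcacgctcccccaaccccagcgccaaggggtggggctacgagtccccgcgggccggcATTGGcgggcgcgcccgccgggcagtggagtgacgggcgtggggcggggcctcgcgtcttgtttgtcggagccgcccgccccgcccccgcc
Sesn2: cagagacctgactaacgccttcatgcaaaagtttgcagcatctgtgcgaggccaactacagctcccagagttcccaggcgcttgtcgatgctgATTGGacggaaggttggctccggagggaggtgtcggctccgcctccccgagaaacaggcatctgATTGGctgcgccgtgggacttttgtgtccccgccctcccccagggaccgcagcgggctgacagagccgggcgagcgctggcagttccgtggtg
CCAAT was found in 33.8% of all 32851 windows of the same length, and in 5 of the 10 windows of the members (both of Sesn1, and those of Sesn2, Ddit4 and Rragc). The element that C/EBP and ATF factors are known to bind in amino acid response genes was searched as TGATGNAA on both strands. It was present in 3.45% of all windows and matched in 0 of the 10, which says only that these letters are not in these windows. No match of a motif overlapped a match of another. An E-box, CACGTG, stood in the windows of Rragc and Rheb and in 6.02% of all windows.

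Eif4ebp1, which encodes 4E-BP1, was higher on all of its 3 probe sets. The probe set that stands for the gene (1434976_x_at) read 10.43, 10.50, 10.45 and 10.39 in controls and 11.29, 11.10, 11.41 and 11.48 in starved arrays. The group means were 10.44 ± 0.05 (SD) and 11.32 ± 0.16, and every starved array was above every control. The suffix _x_at marks probes that can also bind similar transcripts, so the other 2 probe sets matter here. Probe set 1417562_at read 10.00, 10.42, 10.25 and 9.95 in controls and 11.42, 11.29, 11.25 and 11.16 in starved arrays, a difference of 1.12 ± 0.11 (2.18-fold). The dimmer 1417563_at stood at 7.52 ± 0.14 (SD) in controls and 8.25 ± 0.20 in starved arrays, a difference of 0.73 ± 0.14. The 3 probe sets therefore gave differences from 0.73 to 1.12. With the values left unscaled, where the median of all probe sets shifted from 0.02 to -0.33, 1417562_at kept its call at 0.74, and the other 2 lost theirs at 0.50 and 0.39. Relative to that median they stood 1.07, 0.83 and 0.72 higher.

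Tas1r1, a subunit of the umami taste receptor that senses amino acids at the cell surface, had the largest difference of the 9 tested members. Its 1 probe set read 7.95, 8.02, 8.43 and 8.44 in controls and 5.54, 6.08, 5.68 and 6.43 in starved arrays. Deposited intensities were 336, 224, 339 and 432 for the controls, and 24.0, 51.0, 35.8 and 82.5 for the starved arrays. The groups, at 8.21 ± 0.26 (SD) and 5.93 ± 0.40 on the log2 scale, were far apart, and the starved values lay near the dim end of the array, below the brightness filter of log2 6.61. The size of the difference thus depends on the offset of 10.9 added before log2, and it was -1.85 with an offset at the 25th percentile of all values and -2.52 without one. Since its starved mean alone would not have passed that filter, it was tested through its controls. The partner subunit gene Tas1r3 was on the array but too dim to be tested. The bases before the Tas1r1 start are given because this gene moved most, on the minus strand at chr4:152038491-152038740. None of the motifs searched, TATAAA included, is in them, so no letter is in capitals.
Tas1r1: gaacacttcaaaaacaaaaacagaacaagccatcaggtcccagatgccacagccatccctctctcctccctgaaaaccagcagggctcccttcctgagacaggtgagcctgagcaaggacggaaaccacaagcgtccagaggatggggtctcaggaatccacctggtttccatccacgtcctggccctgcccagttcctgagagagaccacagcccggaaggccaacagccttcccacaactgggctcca

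The genes whose profile over the 8 arrays was most like that of Tas1r1 were found by Pearson correlation among the other 8351 genes, with 1 library per point and the group difference shared by all. They were the prion protein gene Prnp (r = 0.9941), the actin-binding caldesmon Cald1 (0.9923), the agrin receptor Lrp4 (0.9902), Aplp1 (0.9877) and Frmd8 (0.9826). The Tas1r1 profile is mostly the split between the groups, so the choice itself fixed that all 5 are lower in starved myotubes. Their differences ran from -1.05 ± 0.09 for Cald1 to -0.24 ± 0.05 for Prnp.

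Ddit4, also called REDD1, which relieves the TSC complex from inhibition under stress, was not called. It read 7.60, 8.17, 8.35 and 8.45 in controls and 8.37, 8.51, 8.51 and 8.34 in starved arrays. Control A was the lowest of all, controls C and D lay inside the starved range, and the groups overlapped. The difference was 0.29 ± 0.17 (95% interval -0.09 to 0.67) and 0.11 without control A. In unscaled values it stood 0.26 above the median of all probe sets, against 0.27 in the main setting.

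The TSC and Rheb genes were not called. Tsc2, the subunit that acts on Rheb, read 9.80, 9.70, 9.85 and 9.60 in controls and 9.79, 9.90, 9.65 and 9.64 in starved arrays. Its difference of 0.01 ± 0.10 had a 95% interval from -0.21 to 0.22. Rheb itself read 10.06, 9.82, 9.93 and 10.08 against 9.96, 10.03, 9.98 and 10.25, with starved H the highest and control B the lowest (0.09 ± 0.10, interval -0.13 to 0.30). Tsc1, which stabilises Tsc2, read 8.29, 7.95, 7.99 and 7.94 in controls and 7.48, 8.03, 7.86 and 7.96 in starved arrays. Here control A was high and starved E low, and the other 6 arrays lay between 7.86 and 8.03. The difference was -0.21 ± 0.15 (interval -0.54 to 0.12). A dimmer Tsc1 probe set, too dim to be tested in the main model, spread widely among controls, from 5.08 in D to 6.97 in B. With no brightness filter it stood at 0.79 ± 0.49 and was not called.

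Of the Rag GTPases, Rragc read 9.91, 10.24, 10.01 and 10.21 in controls and 9.94, 10.03, 9.89 and 9.98 in starved arrays. The starved arrays lay at or near the lower end of the control range, and the difference of -0.13 ± 0.09 was not called (interval -0.34 to 0.08). Rragd, a close relative of Rragc that pairs with RagA or RagB in the same way, was dim in both groups. It read 5.20, 5.43, 4.84 and 5.46 in controls and 5.20, 5.77, 5.07 and 5.60 in starved arrays, and stood at 0.18 ± 0.24 with no brightness filter.

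**Figure D2:**
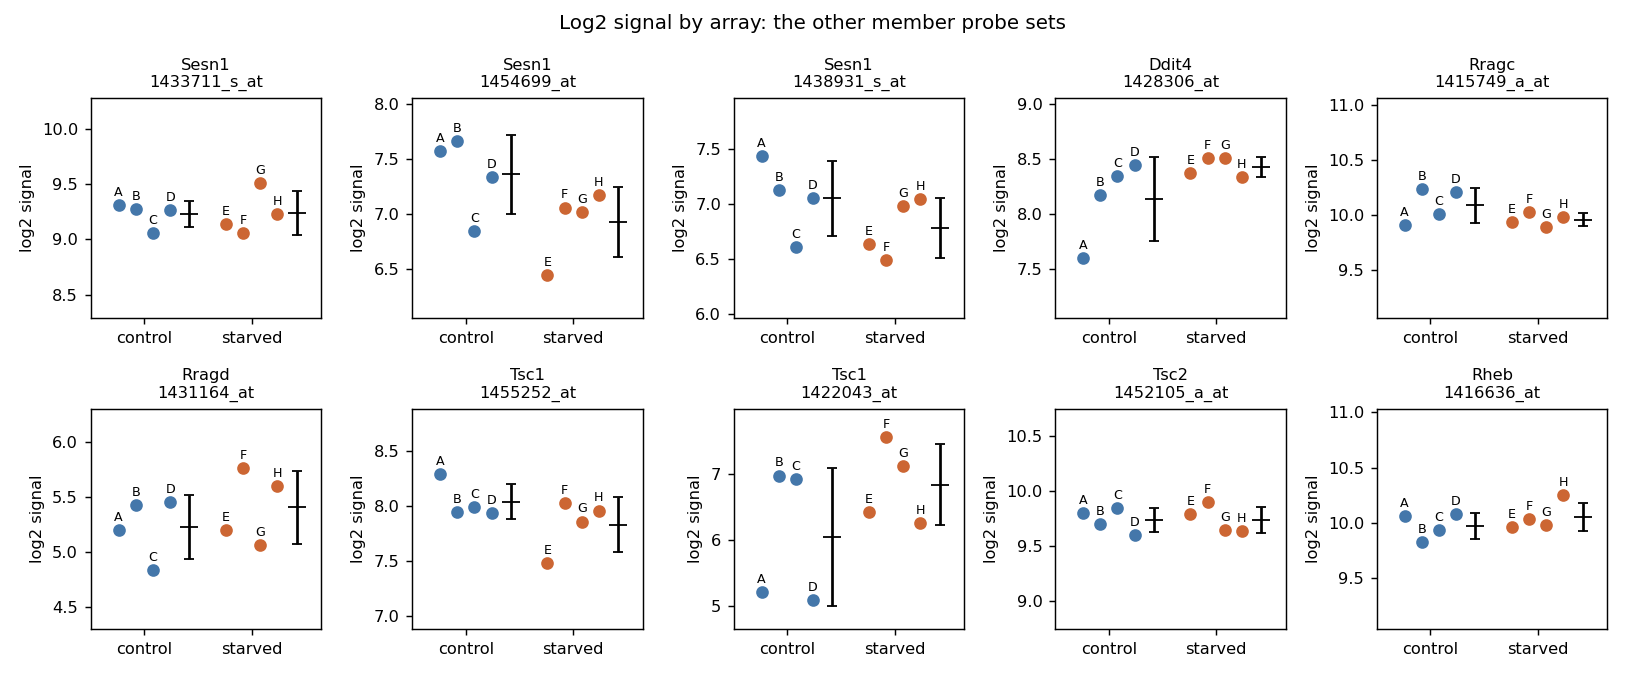
Log2 signal (vertical axis, quantile normalized) of the 10 probe sets of Sesn1, Ddit4, Rragc, Rragd, Tsc1, Tsc2 and Rheb in each control (blue) and starved (orange) array, with the group mean ± SD (n = 4) as a bar. The groups overlap in every panel, and the dim Tsc1 probe set 1422043_at has the widest spread, from 5.08 to 7.55.

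**Figure D3:**
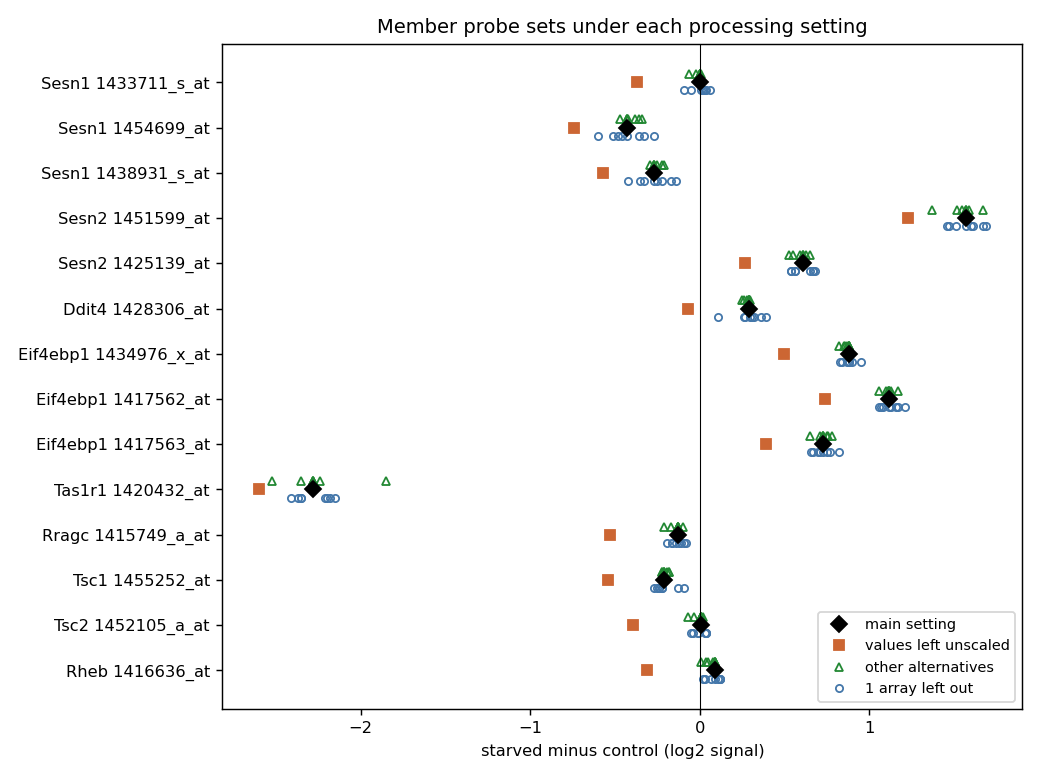
Log2 difference, starved minus control (horizontal axis), of the 14 tested member probe sets in the main setting (black), in unscaled values (orange), in other alternatives (green) and with 1 array left out (blue). The unscaled values lie to the left of the main ones in every row, and the probe sets of Sesn2 and Eif4ebp1 stay above 0 and that of Tas1r1 below 0.

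The rest of the pathway was read from 6 lists of genes chosen by role, with earlier results of these data known. Adjusted p-values of listed genes are therefore a description too. Together the lists held 118 genes, of which 74 were tested. Of these 74 genes 8 rose, 3 fell and 63 did not pass, with a median difference of 0.09 against 0.01 over all genes. Beside these 11 called of 74 stand the 4.25% higher and 6.93% lower over all genes tested, 11.2% in all, which are also the background of each list below. In unscaled values 4 were called higher and 7 lower. Without control B 10 were higher and 4 lower. When control C or starved F was left out, 1 was lower.

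Among amino acid sensors and the Rag arm, with 18 genes tested, 2 rose, 2 fell and 14 did not pass (median 0.05). Rraga, which encodes the RagA partner of Rragc and Rragd, rose from 8.54 ± 0.16 (SD) to 9.12 ± 0.15, by 0.58 ± 0.12 (limma, adjusted p = 0.00973). In unscaled values it was at 0.21 (adjusted p = 0.565), which is 0.54 above the median of all probe sets, against 0.56 in the main setting. Lars, the leucyl-tRNA synthetase that has also been described as a leucine sensor for TORC1, rose by 0.95 ± 0.10 (adjusted p = 7.94e-05). Sesn3 fell by 0.55 ± 0.13 (adjusted p = 0.0199). It read 8.00, 8.20, 8.37 and 7.92 in controls and 7.54, 7.58, 7.64 and 7.55 in starved arrays, and its call was lost when control C or starved F was left out (highest adjusted p = 0.069). Sh3bp4, which has been described as a negative regulator of the Rags, fell by 0.56 ± 0.13 (adjusted p = 0.0152). Nprl2, a subunit of the GATOR1 complex that switches the Rags off, stood at 0.31 ± 0.15 (adjusted p = 0.237). Its only call was without control B (adjusted p = 0.0473), the array that read highest of the controls.

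Of the amino acid carriers tied to TORC1 2 of 6 tested genes rose and 4 did not pass. Both encode a subunit of the same leucine carrier. Slc7a5 read 9.94, 9.92, 10.15 and 9.88 in controls and 11.95, 11.77, 11.96 and 11.78 in starved arrays (1.89 ± 0.08, adjusted p = 3.96e-07), and Slc3a2 rose by 1.86 ± 0.09 (adjusted p = 5.51e-07).

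Of 15 tested genes that feed growth factor and energy signals to TSC and Rheb, 1 rose and 14 did not pass (median 0.08). Trib3, a pseudokinase that binds Akt, rose by 2.72 ± 0.16 (adjusted p = 1.23e-06). Akt1, the kinase that inhibits Tsc2, stood at 0.18 ± 0.16 on its brighter probe set (adjusted p = 0.534), and at 0.01 without control B. The dimmer Akt1 probe set stood at 1.27 ± 1 (adjusted p = 0.491), with control B far below the other controls. In the list of mTOR complexes and their assembly factors 1 of 10 fell and 9 did not pass. The kinase gene Mtor fell by 0.49 ± 0.13 on its brighter probe set (adjusted p = 0.0347), with 9.92, 10.40, 9.94 and 9.85 in controls and 9.68, 9.60, 9.52 and 9.34 in starved arrays. The other Mtor probe set stood at 0.14 ± 0.12 (adjusted p = 0.542), and averaging both gave -0.17 (adjusted p = 0.327). The Mtor call was also lost without an intensity trend and when control A or C or starved array F, G or H was left out, where the highest adjusted p was 0.0798.

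Among TORC1 substrates and effectors 1 of 19 rose and 18 did not pass (median 0.14). Eif4b, a cofactor of the helicase at the mRNA cap, rose by 0.42 ± 0.09 (adjusted p = 0.0148). In unscaled values it was at 0.03 (adjusted p = 0.925), which is 0.36 above the median of all probe sets, against 0.40 in the main setting. Eif4b probe set 1426380_at was not called at 0.29 ± 0.09 (adjusted p = 0.0645). The dimmest Eif4b probe set, 1426379_at, was called at 0.59 ± 0.14 (adjusted p = 0.0226). Eif4e, the cap-binding protein that 4E-BP1 holds back, stood at 0.18 ± 0.10 (adjusted p = 0.313), and Eif4ebp2, which was named after its value was seen, at 0.03 ± 0.22 (adjusted p = 0.945). In the other amino acid sensing route, that of the eIF2alpha kinases, 2 of 6 rose and 4 did not pass. Atf4, the transcription factor at its end, known to induce Sesn2, Ddit4 and Eif4ebp1, rose by 0.67 ± 0.08 (adjusted p = 0.000289), and Ppp1r15a, which directs eIF2alpha dephosphorylation, by 0.85 ± 0.18 (adjusted p = 0.012). Neither kept its call when the arrays were not scaled (adjusted p = 0.178 for Atf4, 0.224 for Ppp1r15a), while against that median Atf4 stood at 0.65 in both settings and Ppp1r15a at 0.81 against 0.83. The tested eIF2alpha kinase genes were not called, and Eif2ak4, the gene of the kinase Gcn2, was too dim to be tested. No probe set was annotated to Rptor or Rps6kb1 alone, so neither was tested.

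**Figure D4:**
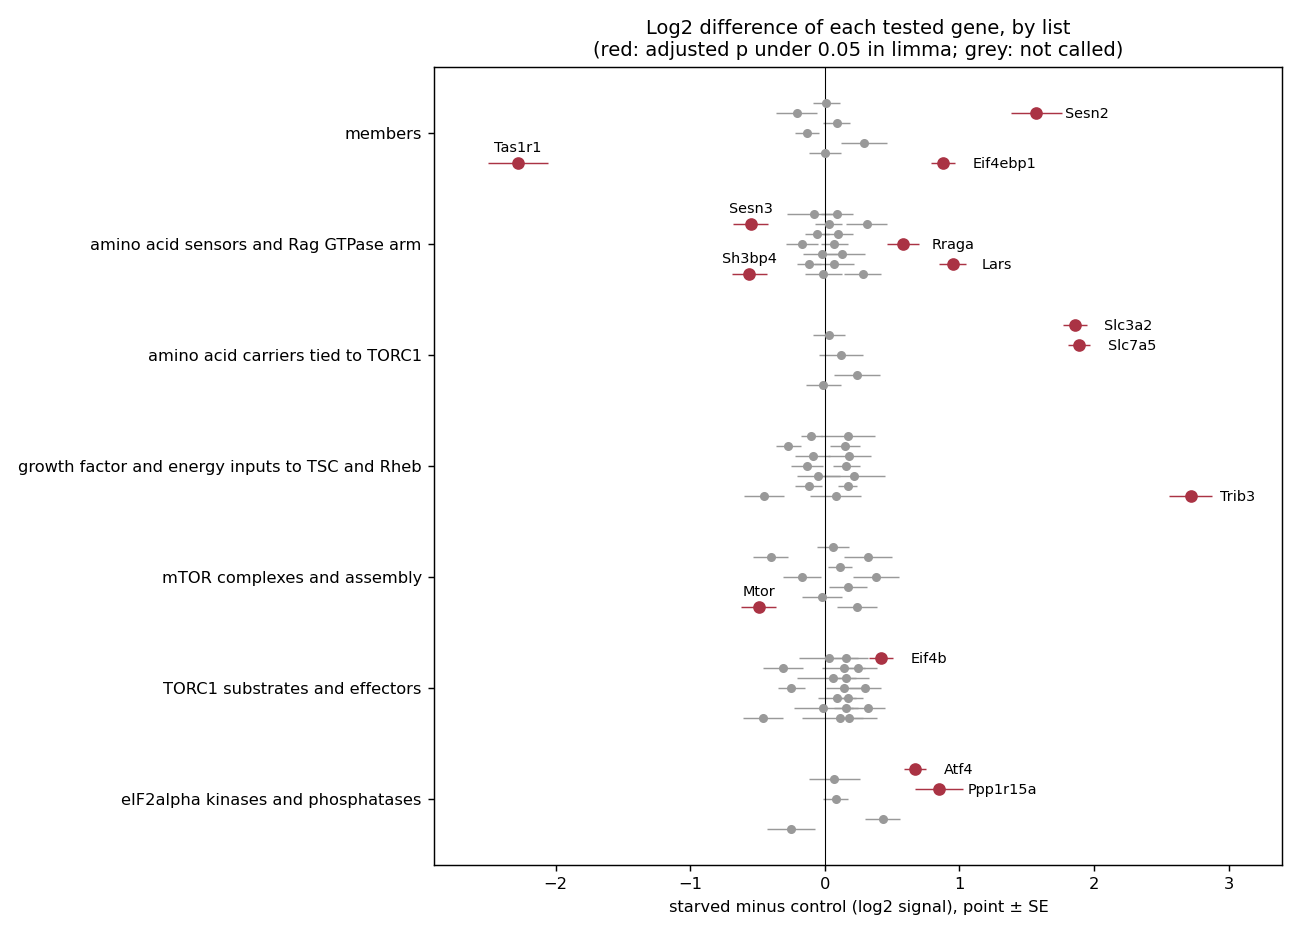
Log2 difference, starved minus control (horizontal axis, point ± SE), of the brightest tested probe set of each of the 9 tested members and the 74 other pathway genes, in rows by list, with called genes in red and named. Most genes lie near 0 in each row, Tas1r1 (-2.28) lies furthest to the left and Trib3 (2.72) furthest to the right.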

How the data were processed

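The authors deposited 1 linear intensity for each probe set and array; the step from scans to intensity is not described in the labels. After addition of 10.9, the 10th percentile of the whole table, log2 values were quantile normalized. Control probe sets (64) and those whose mean did not exceed the 40th percentile (log2 6.61) were not tested. No detection calls were used, and precision is limited by the number of arrays.

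The groups were compared in limma 3.58.1 (R 4.3.3; lmFit, then eBayes with trend), adjusting by Benjamini-Hochberg across 13575 probe sets. The offset makes fold changes of dim genes too small. The brightest tested single-symbol probe set represents a gene (2016 platform annotation, symbols updated by gene number in RefSeq). Separate cultures are not stated for the replicates, so p-values reflect a spread that may be technical.

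Named by rule are all members, up to 3 called genes per list and direction, and a fixed panel of 10 genes that overlaps the called ones. Tas1r3, Eif2ak4 and Eif4ebp2 were named outside this rule. Members, lists and rules were chosen with earlier results of these data known. On simulated data for this comparison (13575 probe sets), 20.6% of log2 changes of 0.5, 89% of 1 and 96.5% of 2 were recovered. Changes were planted only in probe sets more than 0.5 above the brightness filter, with independent noise, and 6 of 139 calls were false. The real data gave 934 called genes, so these rates may not carry over to them or to dim genes. The 19 alternatives varied scaling, offset, filter, moderation, array weights, probe set averaging and the arrays included. Figures were drawn with matplotlib 3.10.9.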

Additional observations from a re-analysis of the deposited data

Results flagged for a closer look

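In 7 of 78 groups of 4 arrays examined, over the probe sets of the members and of the other named genes, 1 array lay far from the other 3; chance gives about 1 in 20 groups. Among the members, control C was low for Sesn1 probe set 1433711_s_at (9.06, the other controls 9.27 to 9.31), and control A was high for Tsc1 probe set 1455252_at (8.29, the others 7.94 to 7.99). Without control C the Sesn1 difference was -0.05, and without control A that of Tsc1 was -0.13.

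Control B, the array with the high Gapdh 3' to 5' ratio, was flagged for 3 pathway probe sets. The dimmer probe set of Akt1 (1425711_a_at) read 4.03 there and 9.21 to 9.49 in the other controls, that of Trib3 (1456225_x_at) read 7.19 against 6.82 to 6.87, and Mtor (1417592_at) read 10.40 against 9.85 to 9.94. Without control B the Mtor difference was -0.37 (limma, adjusted p = 0.0437). The part of RNA quality in these values was not tested. Control C was high for Eif4b (10.72, the others 10.44 to 10.48) and control D low for Sh3bp4 (8.87, the others 9.11 to 9.12).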

How the results depend on the processing

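Of the 19 alternatives, the unscaled values and the filter at the 60th percentile changed the counts of called members. In unscaled values 1 member was higher (Sesn2), and Eif4ebp1 stood 0.83 above the median of all probe sets, against 0.86. With the filter at the 60th percentile 1 was higher (Eif4ebp1) and 0 lower, since Sesn2 and Tas1r1 were then too dim to be tested. In the others, leaving out any 1 array included, Sesn2 and Eif4ebp1 were higher and Tas1r1 lower, so that these counts stayed at 2 and 1. Sesn2 ran from 1.09 (mean of its probe sets) to 1.69, Eif4ebp1 from 0.50 to 0.95 and Tas1r1 from -2.60 to -1.85. The other tested members were not called in any alternative. Of the pathway genes 4 were higher and 7 lower in unscaled values; with 1 array left out 8 to 10 were higher and 1 to 4 lower. The count of all called genes was 45 higher and 1027 lower in unscaled values, against 355 and 579, and without starved F 226 were higher. No paired analysis was possible because the replicate letters differ between the groups.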
